A study of Homo sapiens with 14 samples.

Results

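SOX2 occupancy was compared between naïve and primed human embryonic stem cells (hESCs) from the peak lists of SOX2 chromatin immunoprecipitation and sequencing (ChIP-seq). The members are the SOX2 peaks of the naïve list and of the primed list on chromosomes 1 to 22 and X of the hg38 build, 11230 of the 234194 regions in the 10 peak lists of the series. The naïve list gave 1940 peaks and the primed list 9290. A peak was called shared when it overlapped a peak of the other state with at least 25% of either peak covered, which gave 930 shared peaks in the naïve list, 930 in the primed list, 1010 naïve-only peaks and 8360 primed-only peaks. Because single peaks can meet several partners, the shared peaks formed 933 overlapping pairs and 927 merged sites.

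Both states were WIBR3 cells, an established hESC line, without any genetic change named in the labels. Both were grown on mitomycin C-inactivated mouse embryonic fibroblast feeder cells. Primed cells were kept in the conventional hESC medium with serum, serum replacement and FGF2. Naïve cells were kept in the serum-free medium called 5i/L/A, which carries kinase inhibitors, LIF and activin A, and the labels describe such cells as converted from primed lines and expanded without cloning. The medium differed along with the state, so the part of each cannot be told apart. The SOX2 antibody was the same in both states (R&D Systems AF2018), and a chromatin input was sequenced for each state. The same series holds lists for 3 subunits of the BAF chromatin remodeling complex, namely BRG1, BRM and BAF155, with 1 list per subunit and state. Peak lists measure no expression, so the state labels could not be checked against marker transcripts.

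The labels name 2 SOX2 libraries per state, but both list the same coordinates, and the list of the second library gives positions alone. There is therefore 1 list per state and no replicate error, and no p-value is given. Intervals are 95% intervals for counting error (exact Clopper-Pearson intervals for a share, Woolf intervals for an odds ratio), with peaks counted as if independent. The depth of the libraries was not used here, and its part in the unequal lengths of the lists was not tested. The study's supplement counts more SOX2 peaks in each state than the lists used here hold, and how the lists relate is not stated. A site without a peak here is therefore a site outside these lists, and it may still be a SOX2 peak of the study. The shared, naïve-only and primed-only classes below hold for these lists alone. Fold enrichment below is the fold over input that the authors' peak caller gave at each peak. It ranged from 1.70 to 42.2 in the naïve list and from 2.51 to 39.5 in the primed list, with the least certain peaks at a −log10 q of 1.31 and 1.35. Median peak width was 283 bp in naïve and 297 bp in primed cells, so that the lists covered 0.592 Mb and 3.03 Mb.

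SOX2 is a transcription factor that bends DNA through its high mobility group domain and reads a short CATTGT-like word. In pluripotent cells it often pairs with OCT4 (the product of POU5F1), and the pair reads a composite element in which the SOX word lies beside the POU word of the octamer. Naïve hESCs resemble the epiblast before implantation, whereas primed hESCs resemble the epiblast after implantation. Later in development SOX2 is kept in the neural lineage. Naïve cells are known for factors such as KLF17, TFCP2L1 and DPPA5, and primed cells for ZIC2, SFRP2 and OTX2.

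The sequences that the comparison turns on are given first, from the plus strand of hg38. Each is the 200 bp around a peak midpoint, and capitals mark the SOX word (CATTGT or CTTTGT), the octamer (ATGCNAAT), the composite OCT-SOX element (CNTTGT, 1 base, ATGC) and the ZIC word (CCTGCTG), on either strand. The naïve-only examples are the single-copy peaks of highest fold enrichment outside promoters and exons that hold a SOX word. One lies 1.05 kb upstream of SPIC, an ETS family factor gene (fold 30.6, chr12:101474187-101474386), and also holds an octamer. The other lies in an intron 2.69 kb downstream of the TRIM26 start (fold 25, chr6:30201973-30202172).
SPIC, naïve-only: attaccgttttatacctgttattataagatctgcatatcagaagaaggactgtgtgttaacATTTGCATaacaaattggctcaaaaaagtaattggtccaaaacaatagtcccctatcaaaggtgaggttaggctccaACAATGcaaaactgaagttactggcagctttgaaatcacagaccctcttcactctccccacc
TRIM26, naïve-only: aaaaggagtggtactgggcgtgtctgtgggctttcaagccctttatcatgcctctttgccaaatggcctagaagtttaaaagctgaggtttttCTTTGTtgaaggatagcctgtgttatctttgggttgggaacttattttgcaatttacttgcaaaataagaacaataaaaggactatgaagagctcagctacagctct

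The primed-only examples are the peaks of highest fold enrichment that hold a ZIC word. The window near EPHA2, an Eph receptor gene, holds 4 SOX words and 1 ZIC word (fold 36.8, chr1:16116007-16116206, 17.5 kb downstream of the start). The window whose nearest gene is CCNH lies 375 kb from it and holds 1 ZIC word and no SOX word (fold 36.8, chr5:87787775-87787974).
EPHA2, primed-only: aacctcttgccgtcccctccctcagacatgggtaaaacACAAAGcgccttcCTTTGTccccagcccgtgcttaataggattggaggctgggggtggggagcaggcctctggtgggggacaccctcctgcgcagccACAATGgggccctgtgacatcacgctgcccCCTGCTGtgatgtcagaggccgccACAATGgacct
CCNH, primed-only: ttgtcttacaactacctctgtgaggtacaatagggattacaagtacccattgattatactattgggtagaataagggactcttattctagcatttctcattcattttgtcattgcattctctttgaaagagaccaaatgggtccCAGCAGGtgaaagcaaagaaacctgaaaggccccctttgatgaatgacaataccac

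The shared examples are the peak of highest naïve fold enrichment with a SOX word, in an intron of SMARCA2, and peaks of core pluripotency genes with the composite element. In the SMARCA2 window (chr9:2018972-2019171) the SOX word and the octamer overlap. The SOX2 window (chr3:181716043-181716242), the POU5F1 window (chr6:31172988-31173187) and the UTF1 window (chr10:133232246-133232445) each hold 1 composite element.
SMARCA2, shared: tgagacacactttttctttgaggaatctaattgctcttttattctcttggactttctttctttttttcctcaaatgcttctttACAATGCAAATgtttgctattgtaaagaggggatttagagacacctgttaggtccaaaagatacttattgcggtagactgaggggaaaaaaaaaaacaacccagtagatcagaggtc
SOX2, shared: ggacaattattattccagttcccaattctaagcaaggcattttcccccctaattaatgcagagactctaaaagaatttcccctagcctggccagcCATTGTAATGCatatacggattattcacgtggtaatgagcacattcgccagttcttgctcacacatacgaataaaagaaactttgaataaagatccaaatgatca
POU5F1, shared: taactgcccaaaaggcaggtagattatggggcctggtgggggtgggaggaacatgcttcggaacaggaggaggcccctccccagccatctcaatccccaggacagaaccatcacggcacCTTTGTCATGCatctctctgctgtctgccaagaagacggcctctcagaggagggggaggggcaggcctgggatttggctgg
UTF1, shared: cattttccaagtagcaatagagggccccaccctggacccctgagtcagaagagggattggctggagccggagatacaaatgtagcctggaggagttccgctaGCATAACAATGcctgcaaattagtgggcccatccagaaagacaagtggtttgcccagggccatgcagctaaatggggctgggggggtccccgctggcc

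In the lists used here, close to 1 in 2 naïve SOX2 peaks was also a primed peak, and about 1 in 10 primed peaks was also a naïve peak. The shared share was 47.9% of the naïve list (95% interval 45.7 to 50.2) and 10.0% of the primed list (9.41 to 10.6). Both shares have different denominators, since the primed list is the longer one. With the primed list shortened to its 1940 peaks of highest −log10 q, 24.2% of the naïve and 24.1% of the shortened primed list were shared.

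Sharing followed fold enrichment in both lists. When each list was split into 10 groups of equal size by fold enrichment, 69.1% of the highest naïve group (134 of 194, 62.1 to 75.5) and 36.1% of the lowest (70 of 194, 29.3 to 43.3) were shared. In the primed list the highest group had 30.8% (286 of 929, 27.8 to 33.9) and the lowest 3.55% (33 of 929, 2.46 to 4.95). Of the 100 peaks of highest fold, 74 were shared in the naïve list and 45 in the primed list. State-specific peaks were not limited to weak calls, since the highest groups held 60 naïve-only peaks at folds of at least 12.6 and 643 primed-only peaks at folds of at least 12.4.

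**Figure D1:**
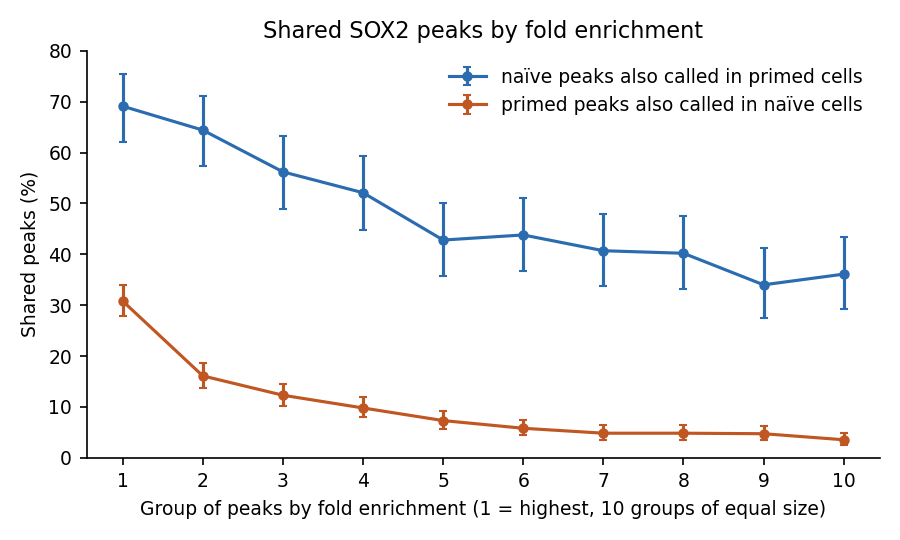
Share of SOX2 peaks also called in the other state (y axis, percent) against groups of equal size by fold enrichment (x axis, group 1 has the highest fold), for the naïve list (blue, 194 peaks a group) and the primed list (orange, 929 peaks a group). Bars are exact 95% intervals for counting error, and the shares run from 69.1% to 36.1% in naïve and from 30.8% to 3.55% in primed cells.

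Shared sites were loosely related in fold enrichment. Their summits lay close together, which the overlap rule that defines a pair largely requires. The summits of the 933 pairs lay a median of 31.0 bp apart, and 71.4% were within 50 bp of each other. The median log2 ratio of primed to naïve fold enrichment was 0.19 (quartiles -0.27 and 0.70), and 565 pairs (60.6%) had the higher fold in primed cells. Across pairs the folds had a Spearman rho of 0.21, and log2 folds a Pearson r of 0.26. Pairs come from the same libraries and are not independent replicates, so these values describe the lists alone. The primed fold was at least 1.5 times the naïve fold in 284 pairs, and the naïve fold at least 1.5 times the primed fold in 128.

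Shared peaks were wider and higher than state-specific ones of the same list. Median width was 300 bp for shared and 270 bp for naïve-only peaks, and 360 bp and 292 bp for shared and primed-only peaks of the primed list. Median fold enrichment was 7.92 for shared and 6.77 for naïve-only peaks in the naïve list, and 9.50 for shared and 6.56 for primed-only peaks in the primed list. Median −log10 q was 11.7 against 8.15 in the naïve list and 18.2 against 8.62 in the primed list. The classes also differed in base composition. Median GC content of the central 200 bp was 42% in naïve-only, 42% in shared and 46.5% in primed-only peaks.

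Naïve-only peaks lay at promoters less often than primed-only peaks. With a promoter defined as the 1 kb on either side of a transcription start site (TSS) of any annotated gene, 8.02% of naïve-only peaks (81 of 1010, 6.42 to 9.87), 12.0% of shared peaks (112 of 930, 10.0 to 14.3) and 16.6% of primed-only peaks (1385 of 8360, 15.8 to 17.4) lay in one. The odds ratio of naïve-only against primed-only peaks was 0.439 (0.347 to 0.555). Introns held 51.6% of naïve-only, 46.8% of shared and 48.0% of primed-only peaks, and intergenic sequence held 37%, 37.5% and 32.5%. With the primed list shortened to the length of the naïve list the promoter difference was smaller, from a log2 odds ratio of -1.19 to one of -0.66.

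Naïve-only peaks instead gathered at an intermediate distance from protein-coding genes. Between 5 and 20 kb from the nearest protein-coding TSS lay 31.1% of naïve-only (28.2 to 34.0), 22.4% of shared (19.7 to 25.2) and 20.7% of primed-only peaks (19.9 to 21.6). Under 1 kb the order was the other way, with 4.85%, 7.31% and 11.6%. More than 100 kb from any protein-coding TSS lay 17.9% of naïve-only, 23% of shared and 25.4% of primed-only peaks, and the odds ratio of naïve-only against primed-only was 0.642 (0.543 to 0.760). The median distance was 19.7 kb for naïve-only, 26.3 kb for shared and 26.5 kb for primed-only peaks. To the nearest TSS of any annotated gene the medians lay close together, at 9.44, 9.35 and 9.83 kb. The part of repeated sequence in these distances was not tested. Peaks upstream and downstream of the start were about equally common in each class. Upstream within 20 kb lay 26.5% of naïve-only, 23.7% of shared and 23.4% of primed-only peaks, and downstream 23.9%, 20.2% and 21.1%.

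**Figure D2:**
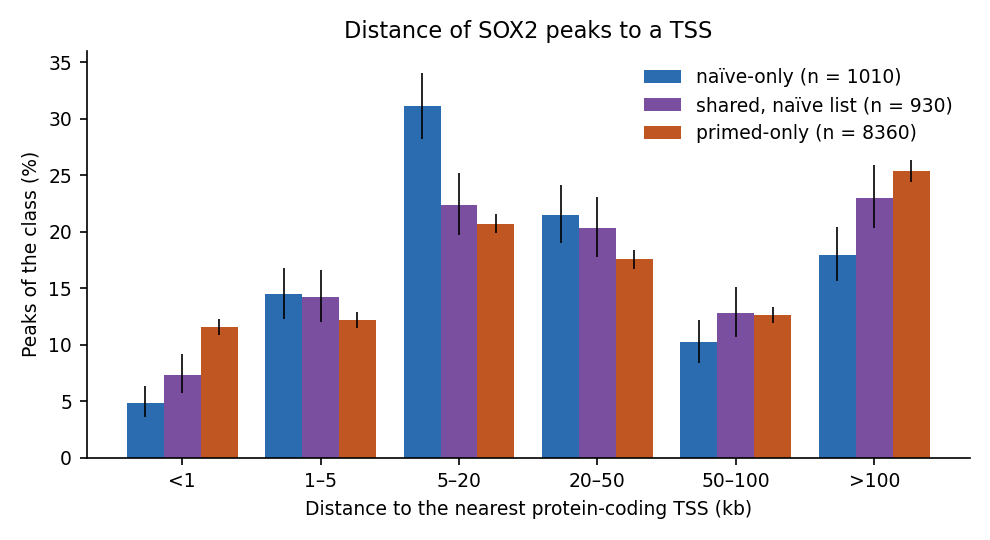
Share of each class (y axis, percent) by distance of the peak midpoint to the nearest protein-coding TSS (x axis, kb), for 1010 naïve-only, 930 shared and 8360 primed-only SOX2 peaks. Bars are exact 95% intervals for counting error, and naïve-only peaks stand above the other classes at 5 to 20 kb (31.1%) and below them under 1 kb (4.85%).

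The SOX word was present in all classes, at shares that lay close together. In the 200 bp at the midpoint, 60.9% of naïve-only (57.8 to 63.9), 56.9% of shared (53.6 to 60.1) and 59.9% of primed-only peaks (58.8 to 60.9) held it, against 27.3% of 291108 windows placed every 10 kb along the genome. The odds ratio of naïve-only against primed-only peaks was 1.04 (0.913 to 1.19). For shared peaks of the primed list against primed-only peaks it was 0.846 (0.738 to 0.970). With the primed list shortened to the naïve length the word was less common in naïve-only than in primed-only peaks, at a log2 odds ratio of -0.40 (-0.61 to -0.18). The word also gathered at the summit. Its density within 20 bp of the summit was 3.63 times that beyond 200 bp in naïve-only, 3.92 times in shared and 4.23 times in primed-only peaks.

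OCT4-type words marked the shared class. The octamer stood in 23.8% of shared peaks (21.1 to 26.6), 15.0% of naïve-only (12.8 to 17.3) and 11.8% of primed-only peaks, against 3.50% of genome windows. Its odds ratio was 1.77 (1.41 to 2.23) for shared against naïve-only peaks and 2.27 (1.92 to 2.68) for shared peaks of the primed list against primed-only peaks. Naïve-only and primed-only shares were 16.4% and 16.2% in windows of 0 to 40% GC, and 14.4% and 13.5% at 40 to 50%. At 50 to 100% GC they were 12.9% (11 of 85) and 7.23% (202 of 2794). The composite OCT-SOX element, shown above in the SOX2, POU5F1 and UTF1 windows, had the same order of classes with all GC contents pooled. The composite element was not counted within ranges of GC content. It stood in 5.59% of shared, 3.07% of naïve-only and 2.17% of primed-only peaks and in 0.126% of genome windows. For naïve-only against primed-only peaks its odds ratio of 1.43 had an interval that includes equality (0.972 to 2.11). Among single-copy peaks, a choice made after the data had been seen, it was 1.56 (1.03 to 2.36), and with 50% of both peaks required the log2 odds ratio was 0.59 (0.07 to 1.11), so that whether the interval includes equality depends on the setting.

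The ZIC word separated primed-only peaks from the other classes. ZIC factors are zinc finger proteins of the primed epiblast and the early neural plate. The word stood in 14.4% of primed-only peaks (1205 of 8360, 13.7 to 15.2), 3.47% of naïve-only (35 of 1010, 2.43 to 4.79) and 4.52% of shared peaks (42 of 930, 3.27 to 6.06), against 3.76% of genome windows. The odds ratio of naïve-only against primed-only peaks was 0.213 (0.151 to 0.30). Because primed-only windows are richer in GC, the word was also counted within ranges of GC content. In windows of 0 to 40% GC it stood in 2.69% of the naïve-only and 7.76% of the primed-only peaks, and in windows of 40 to 50% GC in 3.22% and 14%. At 50 to 100% GC the shares were 8.24% (7 of 85) and 18.1% (507 of 2794). Genome windows of these ranges held it in 1.43%, 4.27% and 9.31%. Within primed-only peaks its density within 20 bp of the summit was 3.18 times that beyond 200 bp. A match to a word is a description of the sequence and does not show that the factor was bound.

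Other words differed less between naïve-only and primed-only peaks, or differed with base composition or repeated sequence. The KLF word (GGGNGNGGC) stood in 7.13% of the naïve-only and 7.54% of the primed-only peaks, with an odds ratio of 0.942 (0.731 to 1.21). Among single-copy peaks, chosen after the data had been seen, it stood in 5.69% of the naïve-only (44 of 773) and 6.89% of the primed-only peaks (544 of 7901). Within ranges of GC content, with multi-copy peaks included, its share was higher in the naïve-only than in the primed-only peaks, by more in the lower ranges. It stood in 2.09% of the naïve-only (7 of 335) and 0.527% of the primed-only peaks (7 of 1328) at 0 to 40% GC, in 8.31% (49 of 590) and 3.19% (135 of 4238) at 40 to 50%, and in 18.8% (16 of 85) and 17.5% (488 of 2794) at 50 to 100%. In shared peaks of the naïve list the KLF shares in these ranges were 1.00% (3 of 299), 6.46% (33 of 511) and 16.7% (20 of 120). The part of repeated sequence in the shares by GC content was not tested. The TFAP2 word (GCCNNNGGC) stood in 6.34% of the naïve-only and 6.10% of the primed-only peaks, with an odds ratio of 1.04 (0.796 to 1.36). It stood in 3.87% of shared peaks. KLF and TFAP2 proteins are factors of naïve cells, and both words were above their genome shares of 2.3% and 2.93% in naïve-only and in primed-only peaks. The AP-1 word (TGANTCA), bound by JUN and FOS dimers, stood in 5.84% of the naïve-only and 10.5% of the primed-only peaks (odds ratio 0.530, 0.404 to 0.696) and in 6.19% of genome windows.

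The TEAD word (ACATTCC), read by the factors of the Hippo pathway, stood in 10.8% of the naïve-only and 6.73% of the primed-only peaks, with an odds ratio of 1.68 (1.35 to 2.08). Among single-copy peaks, chosen after the data had been seen, it stood in 4.40% and 5.51%, and the odds ratio of 0.790 (0.553 to 1.13) lay on the other side of equality. The OTX word (TAATCC) stood in 11.3% of naïve-only, 10.9% of shared and 11.2% of primed-only peaks, below its share of 13.9% in genome windows. Among single-copy peaks it stood in 7.24% of the naïve-only and 11.2% of the primed-only peaks, with an odds ratio of 0.622 (0.469 to 0.823).

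**Figure D3:**
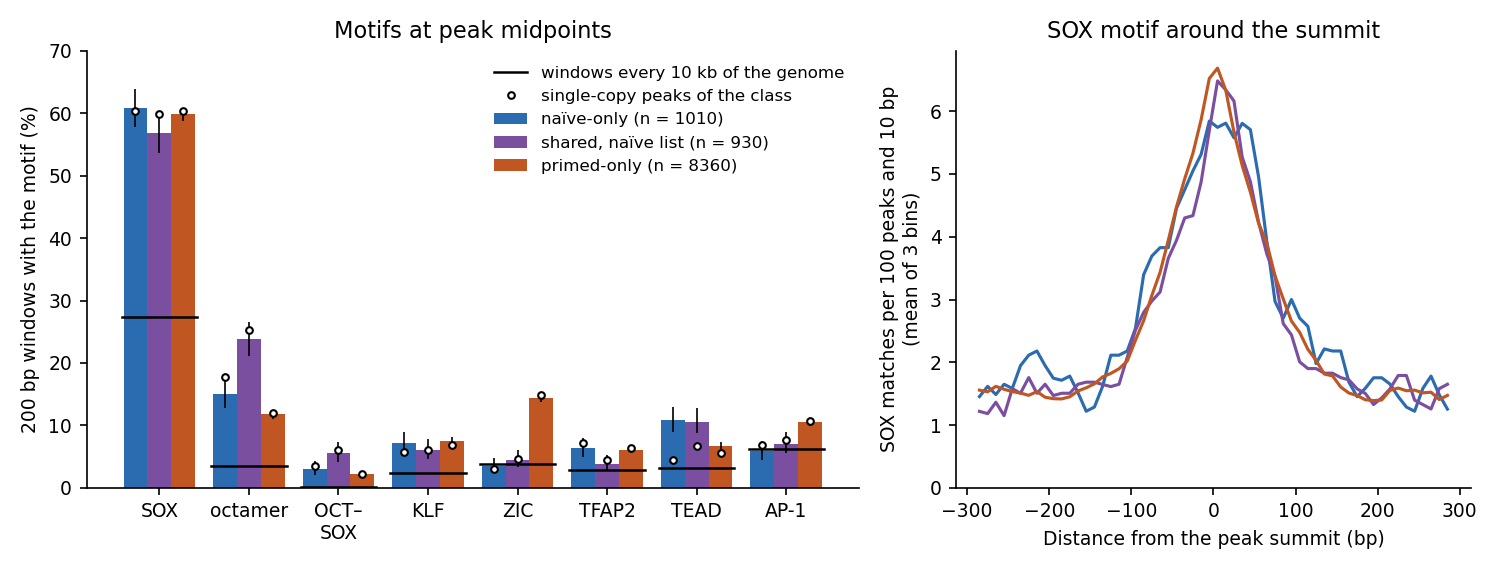
Left, share of 200 bp windows at peak midpoints that hold each word (y axis, percent) in naïve-only, shared and primed-only SOX2 peaks, with exact 95% intervals, the share among genome windows (black lines) and the share among single-copy peaks of the class (open circles). Right, SOX word matches per 100 peaks and 10 bp (y axis, mean of 3 neighbouring bins) against distance from the peak summit (x axis, bp). The ZIC bars read 3.47%, 4.52% and 14.4%, and the SOX word peaks at the summit in every class.

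Naïve-only SOX2 peaks lay in repeated sequence more often than the other classes. A peak was called multi-copy when the 24-base words of its central window had a median of more than 1 copy in hg38. Multi-copy peaks made up 23.5% of naïve-only (237 of 1010, 20.9 to 26.2), 12.0% of shared (10.0 to 14.3) and 5.49% of primed-only peaks (459 of 8360, 5.01 to 6.0). The odds ratio of naïve-only against primed-only peaks was 5.28 (4.44 to 6.28). Reads from near-identical copies can be placed on either copy, so the position of a multi-copy peak is less certain than that of the rest. The SOX2 libraries were paired-end, and the study's methods keep properly paired alignments and name no filter on mapping quality. The part of read placement in the result was not tested.

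Peaks that shared at least 30 such words were joined into families, and 5 families had 10 or more peaks, with 582 peaks in all. No repeat annotation was used, so the families are numbered by size.

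Family 2 was the family most tied to naïve cells. It held 10.6% of naïve-only peaks (107 peaks), 3.66% of shared and 0.335% of primed-only peaks (28 peaks). Its central window held a SOX word in 68.1% of its 204 peaks, and 124 of them lay within 20 kb of a protein-coding TSS. Family 1 had 271 peaks, with 5.94% of naïve-only (60 peaks), 4.19% of shared and 1.60% of primed-only peaks (134 peaks). It held the TEAD word in 77.9% of peaks and the SOX word in 29.5%. Family 4 was the reverse, since all of its 45 peaks were primed-only, and 88.9% held a SOX word. Family 3 had 50 peaks, 56.0% of them with an octamer, and 15 naïve and 17 primed peaks of this family were shared.

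Most SOX2 peaks lay in a BAF region of their own state. A BAF region is a merged BRG1 and BAF155 peak of one state, and BAF is the complex that slides and evicts nucleosomes. Naïve BAF regions held 91.3% of naïve-only (89.4 to 93.0) and 94.9% of shared peaks (93.3 to 96.3). Primed BAF regions held 87.7% of primed-only (87.0 to 88.4) and 95.1% of shared peaks of the primed list (93.5 to 96.4). Among genome windows 2.15% lay in naïve and 1.73% in primed BAF regions.

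In the other state fewer state-specific than shared peaks lay in BAF regions. Primed BAF regions held 29.9% of naïve-only peaks (27.1 to 32.8) and naïve BAF regions held 35.7% of primed-only peaks (34.6 to 36.7), while primed BAF regions held 95.3% of the shared peaks of the naïve list. With lists of equal length the shares of naïve-only and primed-only peaks were 49.1% and 37.9%, which turns their order, and with 50% of both intervals required they were 13.5% and 12.1%. Naïve-only peaks with BAF in naïve cells alone made up 62.9% of their class, and primed-only peaks with BAF in primed cells alone made up 54.4%. BAF regions of both states covered 28.4% of naïve-only, 91.3% of shared and 33.3% of primed-only peaks. No BAF region of either state was found at 7.23% of naïve-only, 1.08% of shared and 9.95% of primed-only peaks. The subunits had unlike parts in the BAF regions of each state. Primed BAF155 peaks met 29.9% of naïve-only SOX2 peaks and primed BRG1 peaks met 3.47%. Naïve BAF155 peaks met 29.7% of primed-only SOX2 peaks and naïve BRG1 peaks met 29.2%.

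The peak lists of the ATPases of the complex met the classes at different shares. The study counts more BRG1 peaks in naïve than in primed cells, and fewer BRM than BRG1 peaks in naïve cells. The part of list length in these shares was not tested. Of genome windows, 0.314% lay in naïve BRM peaks. Naïve BRG1 peaks met 86.0% of naïve-only (83.7 to 88.1), 92.0% of shared (90.1 to 93.7) and 29.2% of primed-only SOX2 peaks (28.3 to 30.2). Naïve BRM peaks met 40.1% of naïve-only (37.1 to 43.2), 47.6% of shared (44.4 to 50.9) and 8.03% of primed-only SOX2 peaks (7.45 to 8.63). Primed BRG1 peaks met 3.47% of naïve-only (2.43 to 4.79), 57.6% of shared (54.4 to 60.8) and 40.2% of primed-only peaks (39.1 to 41.2). Primed BRM peaks met 3 naïve-only peaks, 1 primed-only peak and 2 shared ones. Within family 2, naïve BAF regions held 88.8% and primed BAF regions 12.1% of the 107 naïve-only members. Of its 28 primed-only members 85.7% lay in naïve and 71.4% in primed BAF regions, and naïve BRM peaks met 42.9% of them against 30.8% of the naïve-only members. The shares depend on the overlap rule. With 50% of both intervals required naïve BRM peaks met 18.3% of naïve-only peaks.

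**Figure D4:**
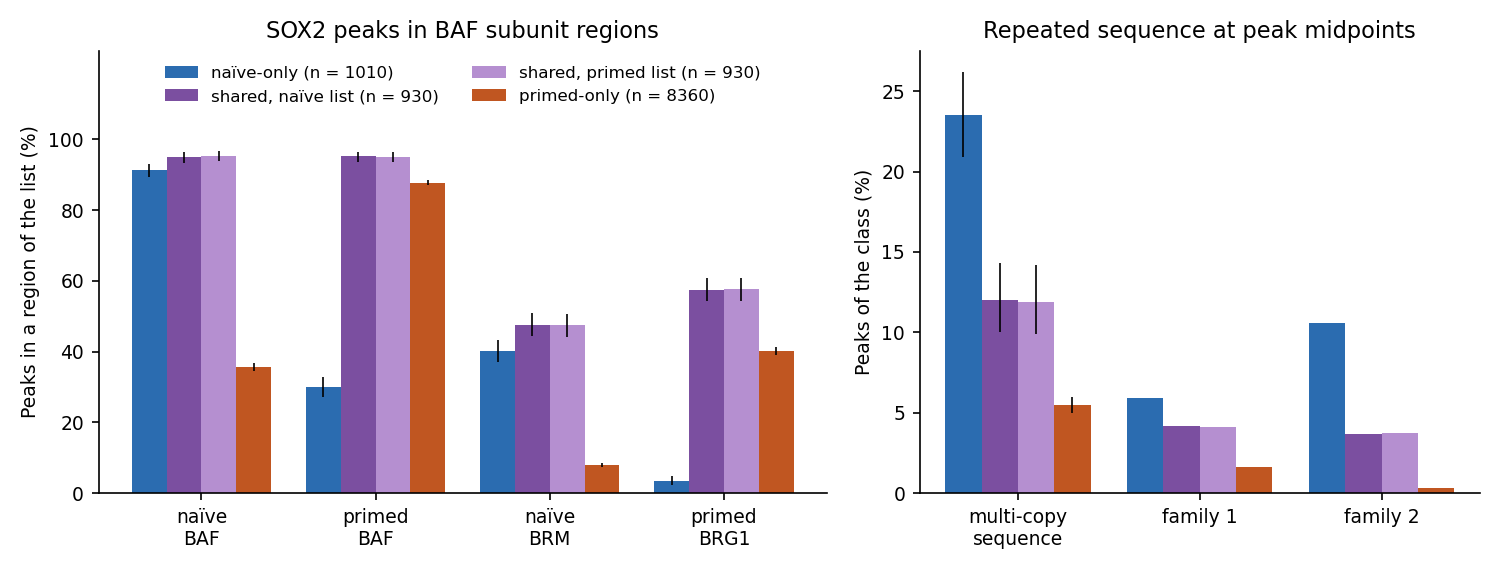
Left, share of naïve-only, shared and primed-only SOX2 peaks (y axis, percent) that overlap naïve or primed BAF regions, naïve BRM peaks or primed BRG1 peaks. Right, share of each class in multi-copy sequence and in families 1 and 2 of related sequence. Bars are exact 95% intervals for counting error where drawn, naïve-only peaks reach 91.3% in naïve BAF and 29.9% in primed BAF regions, and 23.5% of them are multi-copy.

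Primed peaks had a neighbour in their own list more often than naïve peaks, as far as the full lists went. Another peak of the same list lay within 12500 bp of 9.38% of naïve and 20.7% of primed peaks. The order turned when the primed list was shortened to the length of the naïve list, where 5.72% of primed peaks had such a neighbour. Within the full lists, 25.5% of shared primed peaks (22.7 to 28.4) and 20.2% of primed-only peaks (19.3 to 21.0) had one, and 9.89% of shared naïve (8.05 to 12.0) and 8.91% of naïve-only peaks (7.23 to 10.8). A primed peak lay within 20 kb of 19.5% of naïve-only peaks (17.1 to 22.1), and a naïve peak within 20 kb of 5.66% of primed-only peaks (5.17 to 6.17).

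Chained at 12500 bp, naïve peaks formed 88 groups with 182 peaks, of which 4 groups had 3 or more peaks. Primed peaks formed 868 groups with 1922 peaks, of which 151 had 3 or more. The largest naïve groups had 4 peaks. One lay at SCGB3A2, a secretoglobin gene (chr5:147868579-147875427), with 4 shared peaks at naïve folds of 6.12 to 10.5. Of these 4 peaks, 3 were in multi-copy sequence. The other lay 642 kb from the nearest protein-coding TSS, that of H3-7, in multi-copy sequence at each of its 4 peaks. Next were groups of 3 whose nearest genes were ZNF486, 88.3 kb away, and DCN, 187 kb away. The largest primed group had 6 primed-only peaks at ZFHX3, a homeobox gene (chr16:73032731-73061434, folds 3.47 to 12.1). Groups of 5 lay at PLAGL1, an imprinted zinc finger gene, 43.8 kb from FGFR1 and at ZIC4 and ZIC1. The FGFR1 group held 1 shared peak, and the PLAGL1 and ZIC groups held none.

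Target genes were assigned as the gene of the nearest protein-coding TSS within 20 kb. Of 19970 protein-coding genes, 486 (2.43%) had a naïve-only peak, 2863 (14.3%) a primed-only peak and 389 (1.95%) a shared peak. A naïve-only and a primed-only peak together were found at 132 genes (0.661%). Of the 486 genes with a naïve-only peak, 339 (69.8%) had no peak of another class and 147 (30.2%) also had a primed-only or shared peak. Counts for each gene list below are read against 2.43%, 14.3% and 1.95%. With the primed list shortened to the naïve length, 565 genes had a primed-only and 181 a shared peak.

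Core pluripotency genes had the highest share of shared peaks among the 25 gene lists. Of 24 genes, 12 (50.0%) had a shared, 16 (66.7%) a primed-only and 2 a naïve-only peak. POU5F1, which encodes OCT4, had a shared peak 2406 bp upstream of its start with a fold of 10.4 in naïve and 19.2 in primed cells, and a primed-only peak of 13.7 nearer to the start. SOX2 itself had a shared peak 4218 bp downstream of the start (15.9 and 24.2). Both of these windows are printed above. NANOG, a homeobox factor, had a shared peak at the promoter (10.8 and 8.67), a naïve-only peak 2993 bp upstream (5.66) and a primed-only peak beside another annotated start (5.48). TDGF1, a NODAL co-receptor (11.9 and 7.53), and UTF1 (12.3 and 9.41) also had shared peaks, with the higher fold in naïve cells.

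Core genes with primed-only peaks included regulators of RNA and the DNA methyltransferase gene DNMT3B. LIN28B, a let-7 microRNA inhibitor, had a primed-only peak 348 bp from its start at a fold of 20.4, and its paralog LIN28A had peaks at 12.1 and 13.9. DNMT3B, a de novo DNA methyltransferase, had 1 primed-only peak at its promoter (19.2), and DNMT3A, which is outside the core list, had 1 at 6.62. EPCAM, an epithelial adhesion molecule, had 3 primed-only peaks, with the highest at 19.8. TRIM71, an RNA-binding ubiquitin ligase, was with NANOG the other gene of this list with a naïve-only peak (6.84), and also had a primed-only peak (4.79). Of 22 DNA methylation genes, 5 had a primed-only peak and 0 a naïve-only or shared one, which allows a share of up to 13.6%.

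Genes known for the naïve state had the highest share of naïve-only peaks among the 25 lists. Of 28 matched genes, 7 (25%) had a naïve-only, 5 (17.9%) a primed-only and 4 (14.3%) a shared peak. ESRRB, a nuclear receptor of the mouse naïve network, had a naïve-only peak in an intron at a fold of 11.8 (chr14:76480393-76480734) with 3 SOX words. KLF17, a Krüppel-like factor of the human blastocyst, had a naïve-only peak 11837 bp upstream (11.6) and a primed-only peak at its promoter (7.32). KLF5 had a naïve-only peak 55 bp upstream of a start (10.5, with a composite element), another at 6.58, and 2 shared and 1 primed-only peaks. The naïve-only peaks of ESRRB, KLF17 and KLF5 all lay in naïve BAF regions and met naïve BRM peaks.

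The remaining naïve-only peaks of this list lay at OLAH, a fatty acid thioesterase gene (11), NLRP2, a gene of the maternal NLRP family (7.47), TFCP2L1, a grainyhead-like factor (5.71), and SMARCA2, which encodes BRM (7.03, 19080 bp from an annotated start). SMARCA2 also had the shared peak printed above, at a fold of 31.2 in naïve and 24.8 in primed cells. DPPA5, which encodes a KH domain protein, had a shared peak of 27.5 and 22.8. ALPG, a placental-type alkaline phosphatase, had a shared peak of 9.58 and 18.6. That peak lay in multi-copy sequence, with a median of 40 copies for the naïve and 32 for the primed peak. KLF4, TBX3 and TEAD4 had primed-only peaks alone, at folds of up to 8.47, 8.47 and 4.56.

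Genes known for the primed state had mostly primed-only peaks, the most common class among all protein-coding genes too (14.3%). Of 29 genes, 16 (55.2%) had a primed-only, 4 (13.8%) a shared and 1 a naïve-only peak. ZIC2 and ZIC5, zinc finger factor genes, had primed-only peaks alone. FGF2, the growth factor of the primed medium, had 1 primed-only peak (12.7), and ETV4, an ETS factor downstream of FGF, had 1 (13.8). For the 4 genes with a shared peak, the folds given are those of the shared site of highest primed fold. That choice favours the primed side, and each site had the higher fold in primed cells. Among all overlapping pairs 60.6% did. OTX2, a homeobox factor, had folds of 8.20 in naïve and 24.2 in primed cells, SFRP2, a secreted WNT inhibitor, had 8.17 and 17.3, and TCF7L1, a WNT-responsive repressor, had 7.35 and 26.9. DUSP6, an ERK phosphatase, had 9.66 and 10.2. ETV5 was the gene with a naïve-only peak (6.35).

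Neuroectoderm genes had mostly primed-only peaks, again the most common class among all protein-coding genes (14.3%). Of 40 genes, 24 had a primed-only, 4 (10.0%) a shared and 0 a naïve-only peak, which allows a naïve-only share of up to 7.50% (3 counts). HESX1, a forebrain homeobox gene, had a primed-only peak 121 bp upstream at a fold of 13.3. PAX6, a regulator of neural and eye development, had 3 primed-only peaks with folds of 4.64 to 7.53. LHX2 and POU3F3 had 3 each, at folds of up to 6.56 and 7.32. NES, which encodes the filament protein nestin, had a shared peak at 5.93 in naïve and 20.2 in primed cells. FEZF2 had a shared peak with the higher fold in naïve cells (9.29 and 3.8). Among the related SOX genes, SOX21 had a primed-only peak of 17.6 and SOX6 a shared peak of 14.4 and 20.0.

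Lists of early lineages had both kinds of peaks. Primed-only ones were in the majority, as among all protein-coding genes, of which 14.3% had a primed-only and 2.43% a naïve-only peak. Of 31 trophoblast genes, 10 (32.3%) had a primed-only, 3 (9.68%) a naïve-only and 2 a shared peak. CDX2, a trophectoderm homeobox factor that also acts in the posterior embryo, had 4 primed-only peaks. Each lay within 2147 bp of an annotated start of the gene, and the highest had a fold of 35.7. GATA3, a trophectoderm factor, had 1 at 9.24. The naïve-only peaks lay at ESRRB, at KRT8, a keratin gene (7.47), and at WWTR1, which encodes the Hippo effector TAZ (10.0). WWTR1 also had a shared peak (17.6 and 21.8) and a primed-only peak at a separate annotated start (9.02).

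Of 22 endoderm genes, 13 (59.1%) had a primed-only, 3 a shared and 2 a naïve-only peak. GATA6, a primitive endoderm factor, was the one with naïve-only peaks alone, at folds of 6.34 and 5.22, and the former window held a composite element. PRDM1, a repressor needed for germ cells, had a naïve-only peak of 10.6, a shared peak of 7.84 and 5.07, and 2 primed-only peaks of 4.79 and 4.58. CER1, a secreted NODAL and BMP inhibitor, had a primed-only peak 122 bp upstream at 16.9. FOXA2 had 3 primed-only peaks of up to 11.5. Of 28 primitive streak and mesoderm genes, 10 (35.7%) had a primed-only, 3 a shared and 2 a naïve-only peak. EOMES, a T-box factor, had a shared peak of 7.03 and 10.0, and SNAI1, a repressor of epithelial genes, a naïve-only peak of 10.6.

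The FGF and ERK list had the highest share of primed-only peaks among the 25 lists, next to the core pluripotency list. Of 31 genes, 21 (67.7%) had a primed-only, 3 (9.68%) a shared and 2 (6.45%) a naïve-only peak. Among genes of feedback inhibitors of the pathway, SPRY1, SPRY2, SPRY4, SPRED1, SPRED2 and SPRED3 had primed-only peaks. SPRY2 had primed-only peaks of 22.3 and 7.71 and a naïve-only peak of 4.33, SPRED2 a primed-only peak of 20.9, SPRY1 primed-only peaks of 16.4 and 8.39, and SPRY4 3 primed-only peaks of up to 7.78. Among ligands, FGF1, FGF2, FGF8 and FGF13 had primed-only peaks, with the highest at 14.5, 12.7, 5.78 and 9.82. The receptor gene FGFR1 had the primed peak of highest fold among all primed peaks (39.5), which overlapped a naïve peak of 6.93 on chromosome 8.

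NODAL and TGF-beta genes had shared and primed-only peaks. Of 38 genes, 15 (39.5%) had a primed-only, 6 (15.8%) a shared and 2 a naïve-only peak. LEFTY1, a NODAL inhibitor and NODAL target, had 2 shared peaks (16.2 and 19.4, and 6.32 and 8.42), and LEFTY2 had 1 (6.22 and 14.8). SMAD7, an inhibitory SMAD, had a primed-only peak of 16.1. The naïve-only peaks lay at BMPR1A, a BMP receptor gene (8.46), and INHBA, an activin subunit gene (5.07). Of 54 WNT genes, 26 (48.1%) had a primed-only, 6 (11.1%) a shared and 1 a naïve-only peak. AXIN2, a WNT feedback gene, had 5 primed-only peaks of up to 21.4. WNT3 had a shared peak with the higher fold in naïve cells (17.6 and 11.8), and LGR5, an R-spondin receptor gene, had the naïve-only peak (7.90).

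Of 20 LIF and STAT3 genes, 5 (25%) had a primed-only, 1 a shared and 0 a naïve-only peak (up to 15.0%). STAT3 had primed-only peaks of 6.6 and 3.96, and SOCS3, its feedback inhibitor, had 18.0 and 6.08. Of 27 NOTCH genes, 6 (22.2%) had a primed-only peak, with JAG1 at 18.5, and NOTCH2 had a naïve-only peak of 5.20. Of 60 axon guidance genes, 18 (30.0%) had a primed-only peak, among them EPHA2 (36.8), EPHA4 with 4 peaks of up to 15.0 and NRP2 with 5 of up to 11.2. Of 54 cadherin and adhesion genes, 23 (42.6%) had a primed-only peak and 1 each a naïve-only and a shared peak. CDH5, vascular cadherin, had a naïve-only peak 56 bp upstream of its start (5.93).

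Of 28 TEAD and YAP pathway genes, 12 (42.9%) had a primed-only, 2 a naïve-only and 2 a shared peak, and YAP1 had 4 primed-only peaks of up to 11.6. Of 31 BAF subunit genes, 3 had a naïve-only (SMARCA2, BCL7C and BCL11A), 6 a primed-only and 1 a shared peak. Solute carrier and ZNF genes, families chosen by symbol alone, lay near the background. Of 385 solute carrier genes, 9 (2.34%) had a naïve-only and 59 (15.3%) a primed-only peak, and of 516 zinc finger genes with a ZNF symbol 17 (3.29%) and 64 (12.4%). Of 85 ribosomal protein genes, 1 (1.18%) had a naïve-only and 5 (5.88%) a primed-only peak. Of 39 HOX genes, 8 (20.5%) had a primed-only and 0 a naïve-only peak (up to 7.69%), and of 53 clustered protocadherin genes 3 (5.66%) and 0 (up to 5.66%). Of 19 SOX, 16 POU and 18 KLF family genes, 8, 5 and 5 had a primed-only peak, and 2, 0 and 2 a naïve-only peak.

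**Figure D5:**
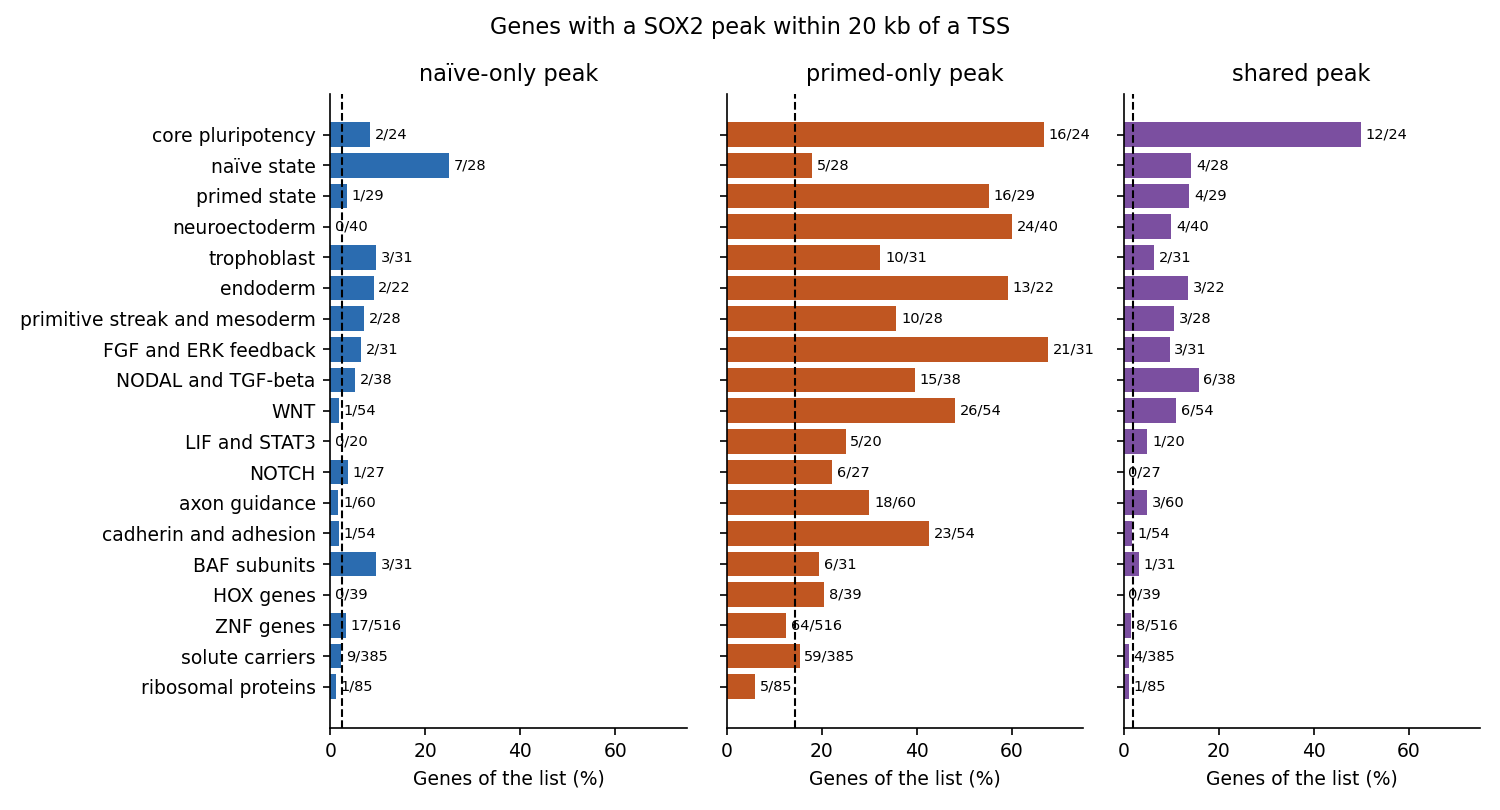
Share of the genes of each list (x axes, percent, with counts beside the bars) that have a naïve-only, primed-only or shared SOX2 peak within 20 kb of a TSS. Dashed lines mark the shares among all 19970 protein-coding genes (2.43%, 14.3% and 1.95%), and the naïve state list reaches 25% on the left, the FGF and ERK list 67.7% in the middle and the core pluripotency list 50.0% on the right.

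Some genes had different sites in each state. Of the listed genes, NANOG, TRIM71, KLF5, KLF17, ETV5, SPRY2, WWTR1, PRDM1, SEMA3E, CDH5, SOX4, SOX5, BCL11A and RPL39L had both a naïve-only and a primed-only peak, as did ZNF43, ZNF532, ZNF552, ZNF578, SLC23A2 and SLC38A9. SOX5, a SOX family gene with many starts, had a naïve-only peak 91 bp upstream of one start (8.34), a primed-only peak upstream of another (9.41) and a shared peak of 22.8 and 16.4. SOX4 had a primed-only peak at its promoter (4.64) and a naïve-only peak 5721 bp downstream (5.48). BCL11A, a zinc finger gene and BAF-associated subunit, had a naïve-only peak of 4.83 and primed-only peaks of 6.08 and 8.47.

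The peaks of highest fold lay near genes outside most of these lists. Naïve-only peaks were led by SPIC (30.6), then by DND1, a germ cell RNA-binding protein gene (26.1), TRIM26 (25), ESR2, an estrogen receptor gene (22.7), and a peak 36.5 kb from MC2R (19.8). All of these lay in naïve BAF regions, and the MC2R peak was the one also in a primed BAF region. Primed-only peaks were led by the EPHA2 and CCNH sites (36.8 each), CDX2 (35.7) and sites 864 kb from KCNJ2 (33.6) and 106 kb from TFAP2C (31.3). All of these lay in primed BAF regions and met primed BRG1. Shared peaks were led in naïve cells by sites near ETV6 (42.2), SMARCA2 (31.2), MAST2 (29.3), REST (28.2) and DPPA5 (27.5). In primed cells those of highest fold included FGFR1 (39.5), REST, a repressor of neuronal genes (35.7 at its promoter), KLF13 (35.5) and ARHGEF38 (32.0). REST was thus in both sets, with folds of 28.2 and 35.7.

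The genes with most peaks of a class were FLRT2, an adhesion gene, and AVL9 for naïve-only peaks, with 3 each. At FLRT2 the folds were 5.37 to 12.8, and at AVL9 1 of the 3 peaks was multi-copy. Primed-only peaks were most numerous at BCOR, a Polycomb corepressor gene, with 8 peaks of 5.02 to 18.7, and then at MCC, RUNX1 and ZFHX3, with 6 each. SCGB3A2 led the shared peaks with 4, of which 3 were multi-copy.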

How the data were processed

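Peak lists of SOX2 ChIP-seq in naïve and primed WIBR3 hESCs were used as deposited, together with the BRG1, BAF155 and BRM lists. Per the study's methods, the authors trimmed the reads, aligned them to hg38 with Bowtie2 (version 2.3.4 in the submitters' processing notes), removed duplicates and called peaks with MACS2 against input, narrow for SOX2 and broad for the BAF subunits. Whether both SOX2 libraries of a state were pooled is not stated. The deposited columns used were the fold enrichment over input (a ratio), the −log10 p-value and −log10 q-value, and the score, which is 10 times the −log10 q-value. Each SOX2 list had 1 peak on another sequence, which was left out.

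Midpoints were annotated with GENCODE release 44, and exact words were counted on both strands of hg38 with Python 3.11.15, numpy 2.4.6, pandas 2.3.3 and scipy 1.17.1. The scripts were tested on simulated data. With 1 list per state, no test between replicates was made. The genes named are members of the gene lists with a SOX2 peak within 20 kb, the 5 peaks of highest fold and the 3 genes with most peaks per class, the 3 groups with most peaks per list, and the listed genes with a naïve-only and a primed-only peak. Ties in the last place are named where few genes share it. Some genes that this rule names, and sequences of the multi-copy families, are not reported here. Sequences shown follow the choices given beside them, with chromosome 8 left out. The members and the gene lists were chosen with earlier results of these data known. Of the genes of the naïve state list, 28 of 29 symbols matched the annotation, and of the SOX family 19 of 20. Alternatives were other overlap rules, distances and windows, a −log10 q of at least 3, lists of equal length and, added after the data had been seen, windows at summits and single-copy peaks.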

Additional observations from a re-analysis of the deposited data

How the results depend on the processing

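Of 140 values of 19 results under 13 alternatives, 111 lay inside the counting interval of the value given above (for counts of genes, within 1.5 times), 27 moved beyond it, and 2 moved beyond it with a turn in direction. Some of the 111 could not move. The second library's list holds the same coordinates, so every result stayed the same under it. Neighbours within a list do not depend on the overlap rule, and naïve neighbours do not depend on the length of the primed list. The count of 111 is therefore no measure of robustness. Inside intervals that include equality, the log2 odds ratio of the KLF word turned from -0.09 to 0.12 with lists of equal length and to 0.23 over 1 kb from a TSS, that of the TFAP2 word from 0.06 to -0.02 with 50% of both peaks required, and that of the SOX word from 0.06 to -0.03 at summits. Genes with a naïve-only peak went from 486 to 683 with lists of equal length and to 674 with a TSS within 50 kb. Primed peaks were cut to the 1940 of highest −log10 q (at least 18.0) to give lists of equal length. The promoter log2 odds ratio of shared against state-specific peaks then turned from -0.46 to 0.11, and that of the SOX word in naïve-only against primed-only peaks from 0.06 to -0.40. With equal lists the shared shares were 24.2% of naïve and 24.1% of primed peaks, the promoter log2 odds ratio of naïve-only against primed-only was -0.66, primed BAF held 49.1% of naïve-only and naïve BAF 37.9% of primed-only peaks, primed neighbours within 12500 bp made up 5.72% against 20.7%, and a primed peak lay within 20 kb of 5.51% of naïve-only peaks. Genes with a primed-only, a shared and both a naïve-only and a primed-only peak were then 565, 181 and 48. That alternative keeps fewer primed peaks by its construction.

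With 50% of both peaks required, the shared shares were 41.9% and 8.75%, primed BAF held 13.5% of naïve-only, naïve BAF 12.1% of primed-only and naïve BRM 18.3% of naïve-only peaks, and a primed peak lay within 20 kb of 27.9% of naïve-only peaks. A promoter of 2 kb gave -0.78 for naïve-only against primed-only. Neighbours within 50 kb gave 18.1% of naïve and 43.8% of primed peaks, and a primed peak within 50 kb gave 34.1% of naïve-only peaks. A −log10 q of at least 3 gave 19.8% of primed peaks with a neighbour, and a TSS within 50 kb gave 245 genes with both kinds of peak. With single-copy peaks alone, an alternative chosen after seeing the data, the shared shares were 51.0% and 9.28%, primed BAF held 36.3% of naïve-only peaks, and neighbours were found for 6.22% of naïve and 19.1% of primed peaks. The cause of these shifts was not tested. Using the second library's list gave the same coordinates. No paired analysis was possible because each state has 1 list of coordinates. The log2 odds ratio of the ZIC word was -2.57 to -1.96 over the alternatives run. Intervals cover counting error, and depth was not used.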

Other observations

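Chromosome 19, which carries the main clusters of KRAB zinc finger genes, held 4.55% of naïve-only SOX2 peaks (46 of 1010) and 1.69% of primed-only peaks (141 of 8360), an odds ratio of 2.78 (Woolf 95% interval 1.98 to 3.91). The nearest protein-coding gene was a ZNF gene for 24 of the 46 naïve-only peaks (52.2%) and for 24 of the 141 primed-only peaks (17.0%). Of those chromosome 19 peaks, 24 naïve-only and 6 primed-only ones were in multi-copy sequence, and the part of this in the result was not tested. Across the genome 17 of 516 ZNF genes (3.29%) had a naïve-only peak within 20 kb, near the 2.43% of all protein-coding genes.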
